A study of Mus musculus with 9 samples.

Results

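The genes described here are the 7 cyclin-dependent kinase (CDK) inhibitors Cdkn1a, Cdkn1b, Cdkn1c, Cdkn2a, Cdkn2b, Cdkn2c and Cdkn2d, together with Trp53, which encodes the transcription factor p53, and the p53 targets Mdm2 and Ccng1. They were chosen by name, through the Ensembl identifiers of the count table, and are 10 of its 55416 genes. All 10 were expressed highly enough to be among the 14879 genes tested. RNA-Seq was performed on 9 libraries of cultured mouse AdvSca1-SM cells, resident vascular progenitors that derive from smooth muscle and reside in the adventitia of arteries. The cells had been sorted from pooled SM22α-Cre-YFP mice, out of the aorta and the carotid arteries. In these mice a smooth muscle promoter drives the Cre recombinase. The 3 groups had 3 libraries each, and all cells were given 0.1% DMSO for 72 h. Stem cells had vehicle alone. TGF-β cells had 5 ng/mL TGF-β1 in DMEM with 0.1% serum after growth arrest, and Both cells had the same TGF-β1 with 50 µM PFI-3, an inhibitor of the bromodomain of Brg1. Before treatment, the growth medium of all cells was αMEM with 10% serum, basic FGF and EGF. The labels describe the change to DMEM with low serum, and without these growth factors, for the treated cells only, and do not state the medium of the Stem cells over the 72 h. The paper describes the Stem cells as kept in stem cell media, its term for the αMEM growth medium. TGF-β1 therefore cannot be told apart from medium, serum and growth factors between Stem and TGF-β, whereas Both differed from TGF-β by PFI-3 alone.

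CDK inhibitors stop the cell cycle by binding to the kinases that drive it. The INK4 proteins, from the Cdkn2 genes, bind to CDK4 and CDK6 and keep the cyclins D away, and the CIP/KIP proteins, from the Cdkn1 genes, act on cyclin and CDK complexes more widely. p53 raises the transcription of Cdkn1a, of Ccng1 and of Mdm2, and the Mdm2 protein in turn marks p53 for degradation, so that p53 activity is set mostly by the protein's stability rather than by its mRNA. TGF-β is known in epithelial cells for raising Cdkn2b and Cdkn1a as it stops growth. Cdkn2a encodes 2 unrelated proteins, p16Ink4a and p19Arf, from separate first exons, and p19Arf acts on p53 by blocking Mdm2. The count table has 1 value for the gene, so the 2 transcripts could not be separated.

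The libraries held 35686291 to 47741128 counts. The 10 genes took 0.0953% to 0.0986% of the counts in Stem, 0.165% to 0.167% with TGF-β and 0.146% to 0.151% in Both. Stem library 2 stood apart from the other Stem libraries. Over all genes, its counts differed from theirs with chi-square values of 115 and 94.2 per degree of freedom, against 5.43 to 14.6 in the 7 other pairs of libraries within a group, and results of the 10 genes, and of the other genes and lists, are given with and without it where it changes a call or a value that they rest on. The progenitor markers Ly6a, Cd34, Pdgfra and Scara5 summed to between 50470 and 58770 normalized counts in Stem and between 6361 and 7423 in the other groups. Pdgfra alone averaged 45657 in Stem. All 4 were lower with TGF-β, Cd34 the most (log2 fold change -4.18). With PFI-3, Pdgfra was higher (0.20, adjusted p = 0.0485 by edgeR's quasi-likelihood test) and Scara5 lower (-1.18, adjusted p = 0.0383). The other 2 were not called, while without Stem library 2 the calls were 1 higher and 2 lower. Normalized counts are reads scaled to a common library of 41200277. The 5 myofibroblast markers Acta2, Tagln, Postn, Col1a1 and Fn1 summed to 329200.0 to 342200.0 in Stem, 1125000.0 to 1203000.0 with TGF-β and 833500.0 to 879600.0 in Both. Col1a1 rose most with TGF-β (log2 fold change 3.08), and Postn fell most with PFI-3 (-1.74). All 5 were higher in TGF-β than in Stem and lower in Both than in TGF-β, as Cdkn1a, Cdkn2a and Cdkn2b were, and the part of this shift in the results below was not tested. The markers of the cell types that could have been carried over were low. The 5 hepatocyte markers, tested because the labels name hepatic tissue for the RNA extraction, and the 4 epithelial markers were at 0 in every Stem library and summed to at most 5.86 and 8.63 elsewhere, the adipocyte markers to at most 4.35, the endothelial markers to at most 67.4 and the macrophage and leukocyte markers, with Adgre1 and Itgam at 0 in every library, to at most 41.9 in Stem, 102.5 with TGF-β and 156.2 in Both. Of the glial markers, Sox10 was at 0 in every library, while S100b measured 30.1 ± 4.83 (SD, n = 3) normalized counts in Stem, 398 ± 36.7 with TGF-β and 237 ± 6.92 in Both. S100b was higher with TGF-β (log2 fold change 3.72, adjusted p = 9.48e-11 by edgeR's quasi-likelihood test) and lower again with PFI-3 (-0.75, adjusted p = 4.68e-04), the same directions as Cdkn1a, Cdkn2a and Cdkn2b. Of the endothelial markers, 2 of 5 could be tested, and with TGF-β Kdr went from 0.721 to 26.1 normalized counts (adjusted p = 8.34e-06 by the same edgeR test) and Tek from 45.7 to 18.3 (adjusted p = 3.39e-04), while neither was called with PFI-3. Of the macrophage and leukocyte markers, 2 of 5 could be tested, and both were higher with TGF-β, Csf1r from 28.5 to 76.1 (adjusted p = 2.07e-04) and Cd68 from 3.53 to 13.2 (adjusted p = 0.00475). Csf1r was higher again with PFI-3, at 138 (adjusted p = 0.0149). The part of these markers in the results below was not tested. In bulk RNA, a change in the share of cells that express a gene cannot be told apart from a change in the RNA per cell. Nothing in the labels says whether the 3 libraries of a group came from separate sorts of cells, so the p-values measure the spread between these libraries.

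The 250 bases before the annotated starts of 5 of the genes are shown in 7 windows because these 5 genes were the ones that were higher with TGF-β1. They come from RefSeq (GRCm38.p6) and are given 5′ to 3′ on the strand of the gene. Of the 10 genes, 9 had an entry in the table, and Cdkn1a, Cdkn2a and Cdkn2c had 2 starts each. In Cdkn1a and Ccng1, the capitals mark the sequence closest to the p53 response element, a pair of adjoining 10-base repeats.

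Cdkn1a, first start, chr17:29090729-29090978, plus strand: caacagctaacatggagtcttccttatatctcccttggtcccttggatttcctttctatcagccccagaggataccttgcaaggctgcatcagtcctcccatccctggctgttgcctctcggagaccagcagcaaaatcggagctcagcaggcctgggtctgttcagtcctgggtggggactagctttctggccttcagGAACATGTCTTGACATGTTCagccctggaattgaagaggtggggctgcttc

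Ccng1, chr11:40755287-40755536, minus strand: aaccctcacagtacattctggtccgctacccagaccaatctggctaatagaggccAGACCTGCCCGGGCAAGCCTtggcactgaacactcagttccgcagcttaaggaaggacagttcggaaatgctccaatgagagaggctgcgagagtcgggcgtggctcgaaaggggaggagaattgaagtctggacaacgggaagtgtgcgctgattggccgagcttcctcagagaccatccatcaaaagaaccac

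With at most 2 mismatches to the p53 consensus and at most 1 base between the repeats, such an element was found in 0.551% of 32851 promoters in the table. It was found in these 2 of the 9 genes with an entry, with 1 mismatch and no spacer in each. The Cdkn1a element, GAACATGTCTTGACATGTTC, lay at chr17:29090928-29090947, starting 51 bases before the first start site of Cdkn1a. The Ccng1 element, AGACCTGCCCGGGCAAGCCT, lay at chr11:40755462-40755481 and started 195 bases before the Ccng1 start site. The window of Mdm2 held no match, which says only that these letters are not in that window. The other windows carry no element of this kind, and the capitals in them mark SP1 boxes (GGGCGG, on either strand, in 32.7% of promoters) or, in Cdkn2b, the SMAD box CAGAC, which 42.2% of promoters hold on 1 strand or the other.

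Cdkn1a, second start, chr17:29093519-29093768, plus strand: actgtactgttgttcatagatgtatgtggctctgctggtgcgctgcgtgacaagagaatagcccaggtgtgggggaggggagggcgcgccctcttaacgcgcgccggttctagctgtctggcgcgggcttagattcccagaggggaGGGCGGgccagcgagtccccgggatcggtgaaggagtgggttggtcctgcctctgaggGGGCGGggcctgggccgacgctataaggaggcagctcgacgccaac

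Cdkn2b, chr4:89311033-89311282, minus strand: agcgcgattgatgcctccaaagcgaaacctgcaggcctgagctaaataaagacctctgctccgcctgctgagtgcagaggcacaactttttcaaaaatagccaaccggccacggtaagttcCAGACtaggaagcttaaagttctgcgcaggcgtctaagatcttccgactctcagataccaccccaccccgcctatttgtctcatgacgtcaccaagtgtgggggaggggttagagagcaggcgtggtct

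Cdkn2a, first start, chr4:89294620-89294869, minus strand: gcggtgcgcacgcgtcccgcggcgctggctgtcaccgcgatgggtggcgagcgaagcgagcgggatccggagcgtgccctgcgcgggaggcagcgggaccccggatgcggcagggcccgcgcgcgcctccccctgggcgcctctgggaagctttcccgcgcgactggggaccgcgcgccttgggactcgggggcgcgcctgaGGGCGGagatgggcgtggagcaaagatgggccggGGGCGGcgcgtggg

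Cdkn2a, second start, chr4:89282193-89282442, minus strand: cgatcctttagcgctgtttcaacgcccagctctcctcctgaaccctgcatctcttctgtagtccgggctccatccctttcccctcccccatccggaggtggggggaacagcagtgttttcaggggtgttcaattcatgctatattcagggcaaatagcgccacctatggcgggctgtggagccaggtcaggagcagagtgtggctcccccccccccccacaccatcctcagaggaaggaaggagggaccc

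Mdm2, chr10:117710759-117711008, minus strand: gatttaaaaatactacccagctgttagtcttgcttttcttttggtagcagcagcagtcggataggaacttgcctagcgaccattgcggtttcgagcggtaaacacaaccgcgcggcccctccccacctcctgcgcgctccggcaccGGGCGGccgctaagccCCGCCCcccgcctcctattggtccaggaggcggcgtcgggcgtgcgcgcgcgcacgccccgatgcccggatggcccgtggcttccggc

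Cdkn2b and Cdkn2a are neighbours on chromosome 4 and are read in the same direction. SP1 boxes started 48 and 14 bases before the first Cdkn2a start, 104 and 46 bases before the second Cdkn1a start and 104 and 88 bases before the Mdm2 start. The second Cdkn2a window held neither this box nor CAGAC, and the CAGAC of Cdkn2b started 129 bases before its start site. CAGAC was not particular to Cdkn2b or to the genes that rose. On either strand it also occurred once in each Cdkn1a window, 93 and 135 bases before the start, and 3 times in that of Ccng1. It occurred 2 times before Cdkn2d and once before the second start of Cdkn2c, both of them genes that were lower with TGF-β1. The first Cdkn2a window also held an E2F sequence (TTTGGCGC or TTTCCCGC, on either strand, in 1.3% of promoters), 99 bases before the start. No other window of the 9 genes with an entry held it. These matches are descriptions of the sequence and not of binding.

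The first comparison, TGF-β against Stem, asked which cell cycle inhibitors and p53 genes differed once the cells had left the progenitor state. Cdkn1a, Cdkn2b, Mdm2, Ccng1 and Cdkn2a were higher with TGF-β, by 1.63-fold to 3.88-fold. Cdkn1b, Cdkn2c and Cdkn2d were lower, and Cdkn1c was almost lost. Trp53 itself did not pass the test. By edgeR's quasi-likelihood test at a Benjamini-Hochberg adjusted p of 0.05, 9 of the 10 genes were called, 5 higher and 4 lower, in a comparison in which 75% of all genes tested were called, 37.3% higher and 37.7% lower. With a minimum of 2-fold, 4 were called, against 25.1% of all genes. The count was 3 when libraries were scaled by their total counts, since Mdm2 then had a log2 fold change of 0.91. The library values of 9 of the 10 did not overlap between the groups, as for 76.8% of all genes. These shares are close to or not far above the background, whereas the sizes were larger than over all genes. The 10 genes were chosen with earlier results of these data known, so their sizes are no test of the group. The median log2 fold change regardless of sign was 0.88 over the 10 genes and 0.49 over all genes tested, and with the sign the medians were 0.38 and 0.

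**Figure D1:**
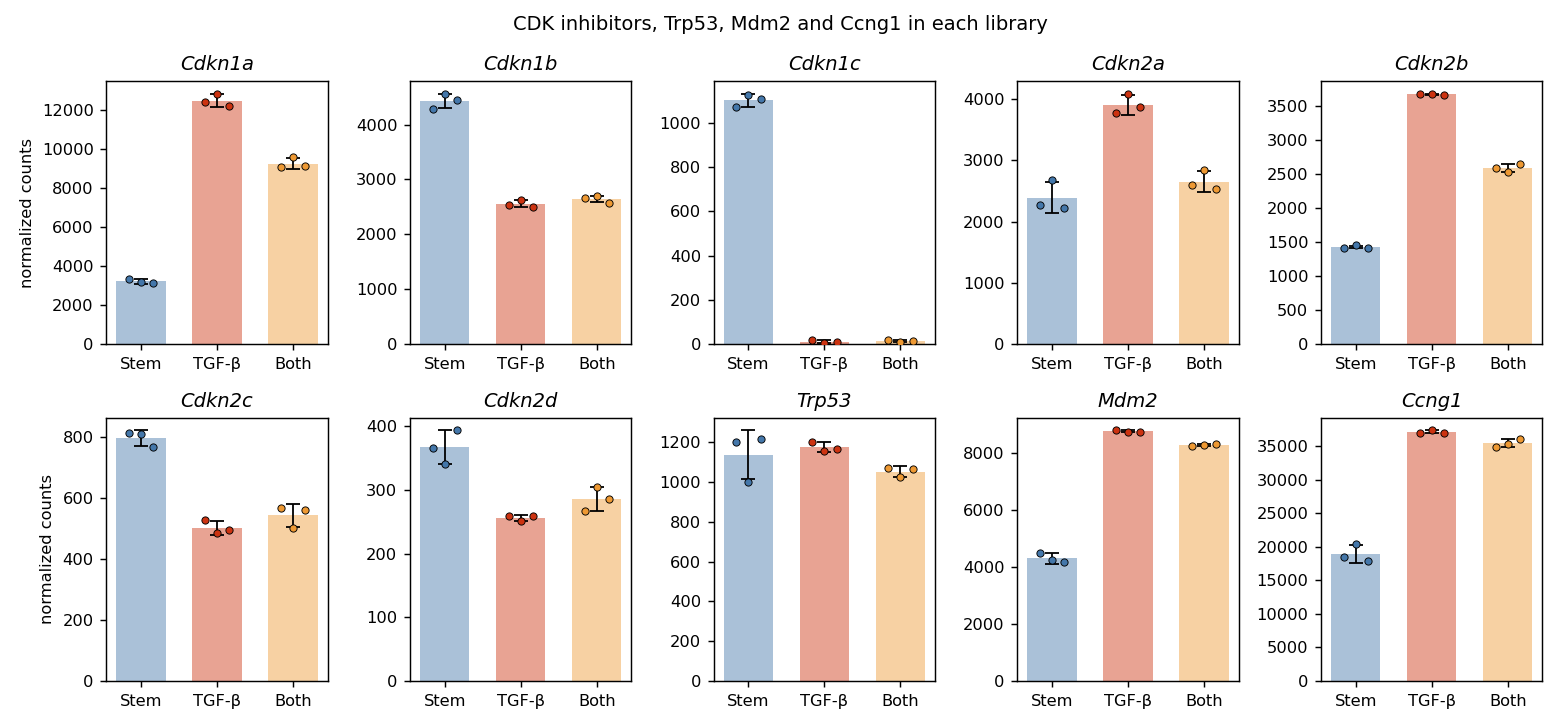
Normalized counts of the 10 genes in Stem, TGF-β and Both. Bars are group means (n = 3), error bars are 1 SD and points are libraries, and each panel has its own linear axis from 0. Cdkn1a, Cdkn2a and Cdkn2b are highest in TGF-β and lower in Both, Mdm2 and Ccng1 are near their TGF-β level in Both, and Cdkn1c is near 0 in both treated groups.

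Cdkn1a (ENSMUSG00000023067) encodes p21, a CIP/KIP inhibitor and a standard readout of p53. It measured 3334, 3196 and 3114 normalized counts in the Stem libraries, 12418, 12844 and 12204 in TGF-β, and 9061, 9578 and 9139 in Both. The 3 groups did not overlap, and the lowest TGF-β library was far above the highest Stem library. The rise from Stem to TGF-β was 3.88-fold (log2 fold change 1.96, SE 0.042, adjusted p = 1.88e-12 by edgeR's quasi-likelihood test), and 604 of the 14879 genes tested rose more.

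Mdm2 (ENSMUSG00000020184), the ubiquitin ligase of p53, measured 4499.5, 4234 and 4153 in Stem, 8789, 8727 and 8735 in TGF-β, and 8224, 8276 and 8296 in Both. Its rise with TGF-β was 2.04-fold (log2 fold change 1.03, SE 0.0377, adjusted p = 1.67e-10 by edgeR's quasi-likelihood test). Ccng1 (ENSMUSG00000020326) encodes cyclin G1, a p53 target that binds to a phosphatase. It was the most abundant of the 10 genes, with 18442, 20387 and 17950 normalized counts in the Stem libraries, 37037, 37388 and 36999 in TGF-β, and 34945, 35278 and 36149 in Both. Mdm2 and Ccng1 about doubled with TGF-β, and neither had a treated library within the Stem range. Ccng1 rose 1.96-fold (log2 fold change 0.97, SE 0.0472, adjusted p = 2.12e-09 by edgeR's quasi-likelihood test). Without Stem library 2, which was the highest of the Stem libraries for Ccng1, the log2 fold change was 1.03, and Ccng1 then passed the 2-fold minimum as the fifth of the 10 genes. Over the 9 libraries, Mdm2 and Ccng1 were the pair among the 10 genes with the most similar pattern, with a root-mean-square difference of 0.061 between their centred log2 levels.

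Trp53 (ENSMUSG00000059552) measured 1202, 997 and 1215 in Stem, 1203, 1158 and 1168 in TGF-β, and 1069.6, 1024 and 1065 in Both. The Stem values enclosed all the others, since Stem library 2 had the lowest value of the 9. The log2 fold change from Stem to TGF-β was 0.05 with a 95% interval from -0.10 to 0.20 (edgeR's quasi-likelihood test, adjusted p = 0.541), so that at this depth a change of Trp53 mRNA beyond 1.14-fold upwards or to 0.933 of the Stem level was outside the interval. Its sign was not stable, with a value of -0.03 without Stem library 2 and of -0.07 when libraries were scaled by their total counts. Library 2 was the lowest in every group, and the fit without Stem library 2 kept it in TGF-β. The mouse pseudogene Trp53-ps had 0 counts in all libraries.

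Cdkn2b (ENSMUSG00000073802) encodes p15Ink4b, the INK4 inhibitor best known as a TGF-β target. It measured 1421, 1451 and 1416 in Stem, 3670.0, 3682 and 3657 in TGF-β, and 2582, 2536 and 2646 in Both. The libraries of each group lay close together, with coefficients of variation from 0.342% to 2.14%, and no groups overlapped. It rose 2.57-fold with TGF-β (log2 fold change 1.36, SE 0.0357, adjusted p = 9.27e-12 by edgeR's quasi-likelihood test). Its neighbour Cdkn2a (ENSMUSG00000044303), with p16Ink4a and p19Arf, measured 2280.1, 2685 and 2219.9 in Stem, 3777, 4092 and 3866 in TGF-β, and 2598, 2844 and 2527 in Both. Library 2 was the highest in every group, and the Stem and Both values overlapped. Cdkn2a rose 1.63-fold with TGF-β (log2 fold change 0.71, SE 0.0695, adjusted p = 1.51e-06 by edgeR's quasi-likelihood test), and the log2 value was 0.80 without Stem library 2. That fit kept library 2 of TGF-β, and with a term for the library number the value was 0.71.

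The 4 inhibitors that fell include p57 and p27, both commonly linked to quiescence. Cdkn1c (ENSMUSG00000037664) encodes p57, an inhibitor that is high in many resting stem cells. It measured 1069.9, 1128 and 1110.0 in Stem, 20.5, 7.10 and 7.81 in TGF-β, and 17.1, 8.88 and 15.8 in Both. In the treated libraries these values rest on 7 to 19 reads, above the floor of 3 reads taken here as detected. The fall was 94.1-fold (log2 fold change -6.56, SE 0.188, adjusted p = 1.88e-11 by edgeR's quasi-likelihood test), and 23 of the genes tested fell further. Without TGF-β library 1, which held the most Cdkn1c reads of its group, the log2 value was -7.18. Cdkn1b (ENSMUSG00000003031), for the CIP/KIP inhibitor p27, measured 4291, 4552 and 4456 in Stem, 2541, 2629.7 and 2500.4 in TGF-β, and 2655, 2699 and 2578 in Both. It was 1.73-fold lower with TGF-β (log2 fold change -0.79, SE 0.0387, adjusted p = 2.21e-09 by edgeR's quasi-likelihood test), and the treated groups overlapped each other.

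Cdkn2c (ENSMUSG00000028551) and Cdkn2d (ENSMUSG00000096472), for the INK4 inhibitors p18 and p19Ink4d, were the inhibitors with the lowest Stem level per kilobase of exon. Cdkn2c measured 814, 808 and 768 in Stem, 528, 484 and 496 in TGF-β, and 567, 500.4 and 561 in Both. Cdkn2d measured 366, 341 and 394 in Stem, 259, 250.5 and 259 in TGF-β, and 267, 305 and 286 in Both. In both genes, every Stem library was above every treated library. The folds were 1.59 downwards for Cdkn2c (log2 fold change -0.67, SE 0.0642, adjusted p = 1.27e-06 by edgeR's quasi-likelihood test) and 1.43 downwards for Cdkn2d (log2 fold change -0.52, SE 0.0813, adjusted p = 9.36e-05 by edgeR's quasi-likelihood test).

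The second comparison, Both against TGF-β, asked what PFI-3 changed while TGF-β1 was present. Cdkn2a, Cdkn2b and Cdkn1a were lower in Both, by 1.35-fold to 1.47-fold, and the other 7 genes did not pass the test. The 3 genes called, all lower, were 3 of 10, where 8.92% of all genes tested were called, 5.38% lower and 3.54% higher. With the 2-fold minimum the count was 0 by edgeR's quasi-likelihood test, by the unadjusted p and by DESeq2, against 0.632% of all genes. At an unadjusted p of 0.05 the count was 5, all lower, and DESeq2 called 3. Without Stem library 2 the count was 4, with Trp53 as the fourth. The libraries of Both and TGF-β did not overlap for 7 of the 10 genes, and for 32.7% of all genes. The median log2 fold change was -0.07 over the 10 genes and 0 over all genes. This comparison and the one before it share the TGF-β libraries.

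Cdkn2a fell by 32.1% (log2 fold change -0.56, SE 0.0689, adjusted p = 4.68e-04 by edgeR's quasi-likelihood test). Against Stem, its level in Both did not pass the test, with a log2 fold change of 0.15, a 95% interval from 0 to 0.30 and an adjusted p of 0.0721 by edgeR's quasi-likelihood test. Without Stem library 2 that difference was 0.25 and passed, with an adjusted p of 0.00109. That fit kept library 2 of Both, which was the highest of its group for Cdkn2a, as Stem library 2 was. Cdkn2b fell by 29.5% (log2 fold change -0.50, SE 0.0344, adjusted p = 1.23e-05 by edgeR's quasi-likelihood test) and stayed 1.81-fold above Stem in Both. Cdkn1a fell by 25.9% (log2 fold change -0.43, SE 0.0401, adjusted p = 7.82e-05 by edgeR's quasi-likelihood test) and stayed 2.88-fold above Stem.

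For Mdm2 and Ccng1, the other p53 targets among the 10, the difference did not pass the test. The log2 fold change of Mdm2 was -0.08, with a 95% interval from -0.16 to 0 (edgeR's quasi-likelihood test, adjusted p = 0.200), and that of Ccng1 was -0.07, with an interval from -0.17 to 0.04 (adjusted p = 0.427). For both genes every Both library was nonetheless below every TGF-β library. Taken as levels per kilobase of exon, Cdkn1a over Mdm2 was 1.07 ± 0.00987 (SD, n = 3) in Stem, 2.04 ± 0.0563 with TGF-β and 1.60 ± 0.0459 in Both, and the ranges of TGF-β and Both did not overlap. An exact two-sided permutation test of that difference gave p = 0.1, the smallest that 3 libraries against 3 allow, and the ratio was given no other test. Mdm2 over Ccng1 was 0.157 ± 0.0127 in Stem, 0.163 ± 0.00138 with TGF-β and 0.161 ± 0.0022 in Both, with ranges that overlapped in all groups.

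The interval for Trp53 in Both against TGF-β ran from -0.31 to -0.01 around a log2 fold change of -0.16 (edgeR's quasi-likelihood test, adjusted p = 0.172). Without Stem library 2, which is in neither group, the same fold change had an adjusted p of 0.0239. None of the 4 inhibitors that had fallen with TGF-β passed the test, in either direction, also at an unadjusted p of 0.05 or with DESeq2. The log2 fold changes were 0.05 for Cdkn1b (95% interval from -0.04 to 0.13), 0.11 for Cdkn2c (from -0.03 to 0.26) and 0.16 for Cdkn2d (from -0.02 to 0.34), with adjusted p-values of 0.505, 0.323 and 0.266 by edgeR's quasi-likelihood test. For Cdkn1c the value was 0.28 with an interval from -0.54 to 1.10 and an adjusted p of 0.716 by the same test. Folds from 0.686 to 2.14 thus lay within that interval.

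Between Both and Stem, 8 of the 10 genes were called, 4 higher and 4 lower, where 73.3% of all genes tested were called, 36.6% in each direction. The 2 not called were Cdkn2a and Trp53, whose libraries overlapped, while those of the other 8 did not, as for 74.7% of all genes. Without Stem library 2 all 10 were called, 5 higher and 5 lower. That fit kept library 2 of Both, the highest of its group for Cdkn2a and the lowest for Trp53. With the 2-fold minimum, 2 were called, Cdkn1a higher and Cdkn1c lower, against 22.8% of all genes. Mdm2 was 1.92-fold and Ccng1 1.87-fold above Stem in Both. Cdkn1c was 77.6-fold below it.

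**Figure D2:**
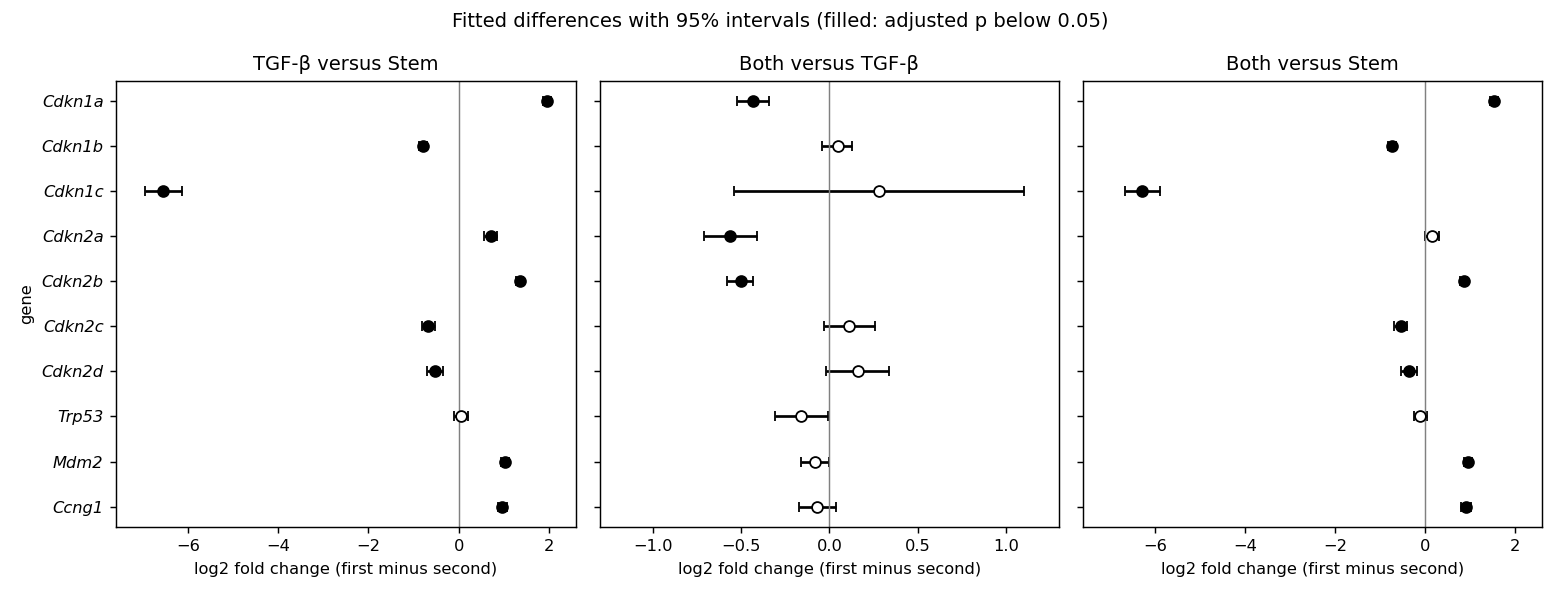
Log2 fold changes of the 10 genes in the 3 comparisons with their 95% intervals, from 1 fit of all 9 libraries. Filled points had an adjusted p below 0.05, and the middle panel has a narrower axis. In the middle panel only Cdkn1a, Cdkn2a and Cdkn2b are filled, at -0.43, -0.56 and -0.50, while Cdkn1c has the widest interval.

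Levels of different genes were compared as normalized counts per kilobase of exon. In Stem the order was Ccng1 (5389), Cdkn2a (2044), Cdkn2b (1028), Cdkn1b (974), Cdkn1a (905), Mdm2 (845), Cdkn1c (541), Cdkn2c (297), Trp53 (281) and Cdkn2d (233). Within libraries, each gene was above the next in this order in 3 of 3 Stem libraries, except that Cdkn2c was above Trp53 in 2 of 3, and these 2 neighbours did not differ beyond their spread. In TGF-β, Cdkn1a (3515) moved up to second place, above Cdkn2a (3338) in 3 of 3 libraries although their ranges overlapped. Cdkn2b (2640.2) and Mdm2 (1722) came next, and Cdkn1b (562), Trp53 (291), Cdkn2c (187), Cdkn2d (163) and Cdkn1c (5.79) followed without overlap. Both had the same order of means as TGF-β, with Cdkn1a (2606) above Cdkn2a (2266.5) and without overlap, but Cdkn2c (202) was above Cdkn2d (182) in only 2 of 3 libraries and did not differ from it beyond the spread.

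The 7 inhibitors summed to 6021 normalized counts per kilobase in Stem, 10410.0 with TGF-β and 7706 in Both, with ranges that did not overlap (5849 to 6305, 10270.0 to 10680.0 and 7597 to 7924). The makeup of that sum also differed between the groups. Cdkn1a made up 15.0% of it in Stem and 33.8% in both treated groups, within 33.5% to 34.0%. Cdkn2b made up 17.1% in Stem, 25.4% with TGF-β and 24.2% in Both. Cdkn2a held 33.9%, 32.1% and 29.4% in the same order, although its level rose and fell. Cdkn1b went from 16.2% in Stem to 5.40% with TGF-β and 7.54% in Both, and Cdkn1c from 8.99% to 0.0559% and 0.0891%. Cdkn2c made up 4.93%, 1.80% and 2.63%, and Cdkn2d 3.88%, 1.56% and 2.36%. The shares of Cdkn1b, Cdkn2c and Cdkn2d were larger in Both than in TGF-β in every library. These are shares of a sum that was lower in Both, and the levels of the same genes did not pass the test between these groups. The level of Cdkn1a over that of Cdkn1b, p21 over p27 mRNA, was 0.930 ± 0.0567 (SD, n = 3) in Stem, 6.26 ± 0.00368 with TGF-β and 4.49 ± 0.0997 in Both. Cdkn2b over Cdkn2a was 0.506 ± 0.0444, 0.792 ± 0.0307 and 0.824 ± 0.0666, where TGF-β and Both overlapped.

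**Figure D3:**
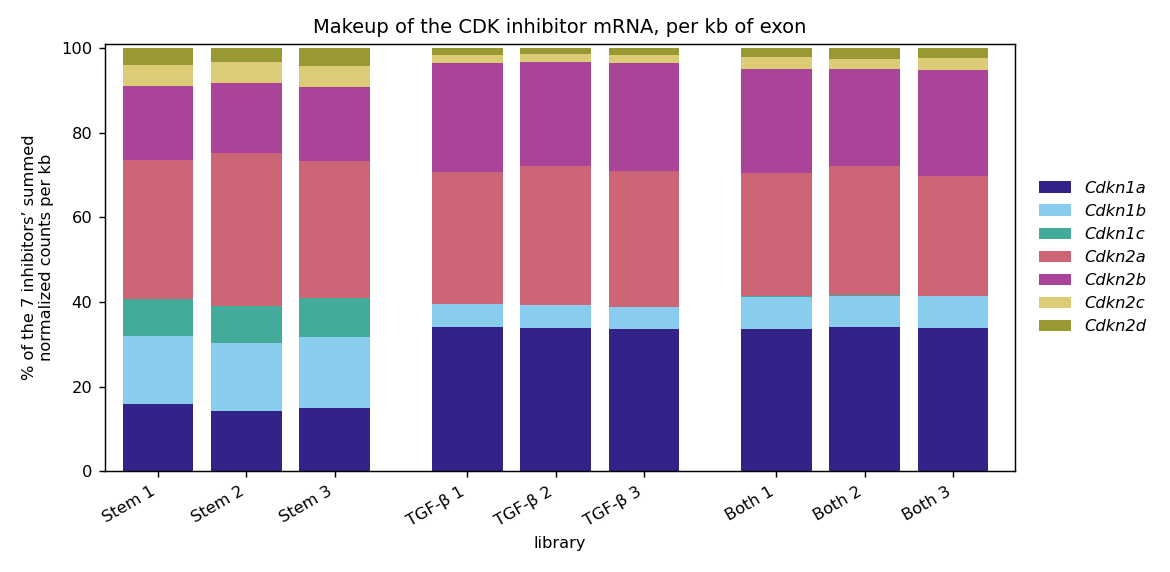
Share of each CDK inhibitor in the 7 inhibitors' summed normalized counts per kilobase of exon, in percent, with 1 bar per library. Cdkn1a takes about the same share in all 6 treated libraries (33.5% to 34.0%) and a smaller one in Stem (14.3% to 15.9%), and Cdkn1c takes 8.77% to 9.31% in Stem and at most 0.11% in the treated libraries.

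Other p53 targets gave the wider setting of Cdkn1a, Mdm2 and Ccng1. Of 27 further genes known as p53 targets, 21 were higher, 4 were lower and 2 were not called in TGF-β against Stem by edgeR's quasi-likelihood test, that is 77.8% higher where 37.3% of all genes tested were called higher. Their median log2 fold change was 0.65, against 0 over all genes. The largest rise was that of Pmaip1, which encodes the cell death protein Noxa, from 127 ± 21.9 (SD, n = 3) normalized counts in Stem to 4028 ± 284 in TGF-β (log2 fold change 4.98, SE 0.118, adjusted p = 4.05e-12 by edgeR's quasi-likelihood test). The largest fall was that of Sesn1, a stress-response gene, from 1723 ± 16.8 to 835 ± 25.7 (log2 fold change -1.04, SE 0.0571, adjusted p = 6.34e-09 by the same test). The other 3 that fell were genes of nucleotide excision repair, named after their values were seen. They were Ddb2 (-1.01, from 48.3 to 23.9 normalized counts), Ercc5 (-0.21) and Xpc (-0.14, adjusted p = 0.0366 by edgeR's quasi-likelihood test). DESeq2, and edgeR without Stem library 2, each called 3 of the 27 lower rather than 4. Of the 18 with a RefSeq promoter entry, 2 held a p53 element by the rule above, Bax and Rps27l, with log2 fold changes of 0.60 and 0.70.

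With PFI-3, 9 of the 27 were lower, none was higher and 18 were not called, which is 33.3% lower where 5.38% of all genes tested were. For the count of 0 higher, the unadjusted p and DESeq2 gave 0 as well, and they gave 13 and 10 lower. The median log2 fold change was -0.10, against 0. Those that fell, named after their values were seen, were Pmaip1 (-0.86), Perp (-0.77), Gadd45a (-0.51), Plk2 (-0.42), Sesn2 (-0.38), Fas (-0.27), Eda2r (-0.25), Tnfrsf10b (-0.19) and Zmat3 (-0.17), in log2 fold change. Pmaip1 was the largest and stood at 2228 ± 259 (SD, n = 3) normalized counts in Both (adjusted p = 1.28e-04, edgeR's quasi-likelihood test). Among the 18 not called were, by log2 fold change, Bax (0.02), Bbc3 (-0.26), Apaf1 (0.03), Aen (-0.09) and Ei24 (-0.10), all named after their values were seen.

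**Figure D4:**
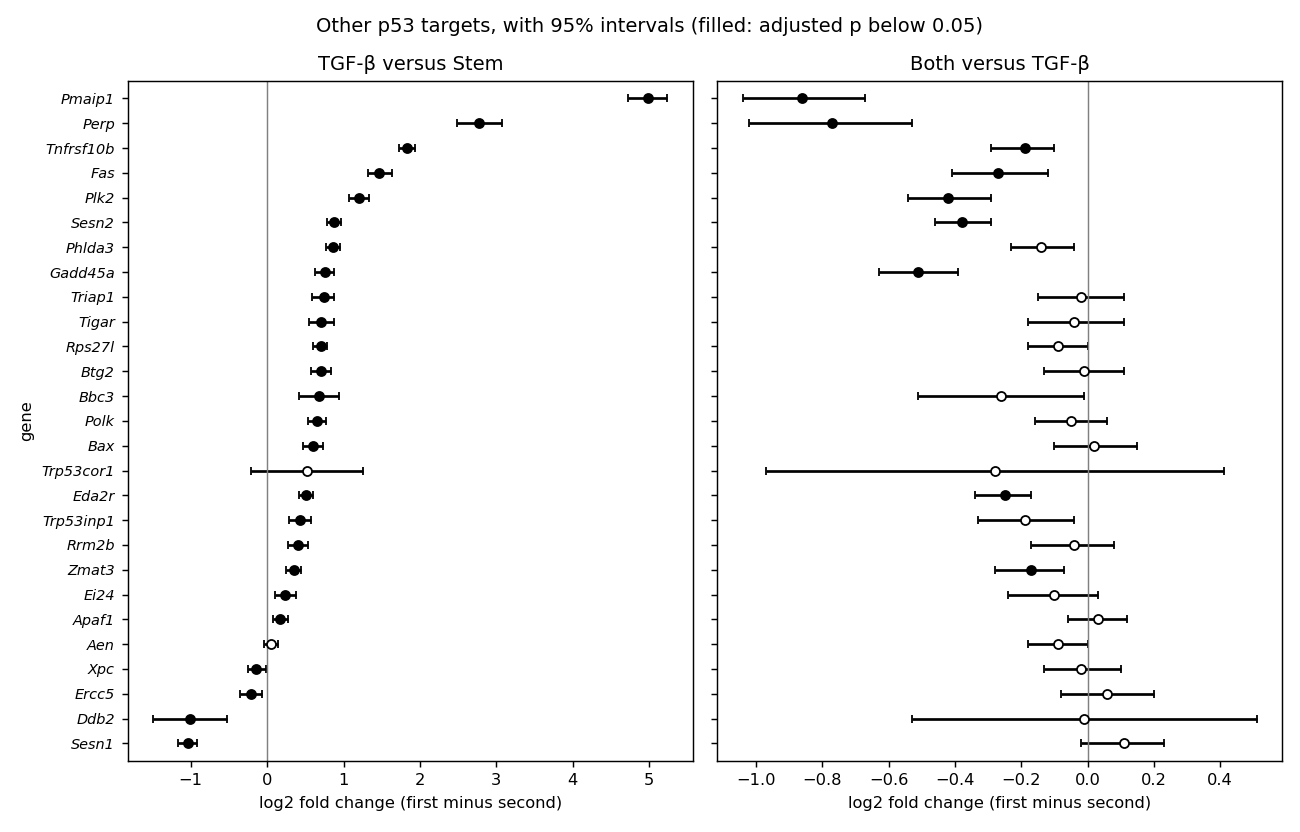
Log2 fold changes of 27 further p53 targets with 95% intervals, in TGF-β against Stem (left) and Both against TGF-β (right), in the same order of genes. Filled points had an adjusted p below 0.05, and the 2 panels have different axes and share the TGF-β libraries. On the left, 21 genes are filled above 0 and 4 below it, and on the right 9 are filled, all below 0.

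Of 17 kinases, acetylases, ligases and relatives of p53, 15 could be tested (Trp63 and Trp73 were too low), and 2 were higher, 9 lower and 4 not called with TGF-β, with a median log2 fold change of -0.31. That is 13.3% higher and 60% lower, where 37.3% of all genes tested were higher and 37.7% lower. The checkpoint kinase gene Chek2 rose most (log2 fold change 0.90, adjusted p = 4.96e-07 by edgeR's quasi-likelihood test), and the kinase gene Hipk2 fell most (-1.02, adjusted p = 2.70e-04). The value of Hipk2 without Stem library 2 was -1.21 (adjusted p = 1.83e-06 by edgeR's quasi-likelihood test), and 3 of the 15 were higher and 10 lower. The other one higher was the checkpoint kinase gene Atr (0.25), named after its value was seen. With PFI-3 none of the 15 was called by edgeR's quasi-likelihood test or by DESeq2, and 1 had an unadjusted p below 0.05.

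Of 15 cyclins, CDKs and their activating phosphatases, 9 were higher, 3 lower and 3 not called with TGF-β (median log2 fold change 0.53). The 60% higher and 20% lower stood beside 37.3% and 37.7% of all genes. Cdk6, a partner of the cyclins D and a target of the INK4 proteins, rose most, from 2044 ± 210 (SD, n = 3) to 5346 ± 206 normalized counts (log2 fold change 1.39, adjusted p = 9.73e-10 by edgeR's quasi-likelihood test). Ccnd1, which encodes cyclin D1, fell most, from 10453 ± 968 to 5541 ± 283 (log2 fold change -0.92, adjusted p = 1.59e-07 by the same test). The other genes that fell, named after their values were seen, were Ccnd3, for cyclin D3 (-0.72), and Cdc25b (-0.26). With PFI-3, 1 of the 15 was higher, 3 were lower and 11 were not called, that is 6.67% higher and 20% lower beside 3.54% and 5.38% of all genes. Ccnd1 fell further, to 2935 ± 227 (log2 fold change -0.92, adjusted p = 2.81e-05 by edgeR's quasi-likelihood test), and the phosphatase gene Cdc25a rose (log2 fold change 0.29, adjusted p = 0.0208 by the same test). The other 2 lower genes, named after their values were seen, were Cdk6 (-0.31) and Ccnd2, for cyclin D2 (-0.23). Ccnd1 was thus lower in each comparison, whereas Cdk6, Ccnd2, Cdkn2b and Cdkn1a rose in the first and fell in the second. Without Stem library 2, 9 of the 15 were higher and 2 lower with TGF-β, and 3 were higher and 4 lower with PFI-3.

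Of 13 pocket protein and E2F genes, through which CDKs act on transcription, 6 were higher, 2 lower and 5 not called with TGF-β, so 46.2% and 15.4% against the same 37.3% and 37.7%. Rb1 rose most (log2 fold change 0.89, adjusted p = 3.06e-09 by edgeR's quasi-likelihood test), and Tfdp2, an E2F partner, fell most (-1.52, adjusted p = 9.64e-06). The value of Tfdp2 without Stem library 2 was -1.68 (adjusted p = 2.33e-07 by the same edgeR test). The other one lower was the pocket protein gene Rbl2 (-0.76), named after its value was seen. None of the 13 was called with PFI-3 by edgeR's quasi-likelihood test or by DESeq2, and 4 had an unadjusted p below 0.05, while 2 were called, both higher, without Stem library 2. Of 10 genes of the ubiquitin ligases that degrade CDK inhibitors, 2 were higher, 4 lower and 4 not called with TGF-β (20% and 40% against 37.3% and 37.7%), led by Rbx1 (0.18, adjusted p = 9.30e-04) and Skp1 (-0.53, adjusted p = 5.39e-06 by edgeR's quasi-likelihood test). Beside them, Cul4a was higher (0.08) and Cks1b (-0.44), Cul1 (-0.33) and Skp2 (-0.28), the last for the protein that recognises p27, were lower, all named after their values were seen. With PFI-3 none of these 10 was called by either tool, and 2 had an unadjusted p below 0.05.

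Of 13 regulators through which TGF-β is known to act on the inhibitor genes, 3 were higher, 9 lower and 1 not called with TGF-β, which makes 23.1% higher and 69.2% lower against 37.3% and 37.7% of all genes. Id2, for an inhibitor of differentiation, fell from 980.1 ± 51.8 (SD, n = 3) to 101.03 ± 18.8 normalized counts (log2 fold change -3.28, adjusted p = 7.65e-11 by edgeR's quasi-likelihood test). Myc, which represses Cdkn2b and Cdkn1a in other cells, rose from 298 ± 16.2 to 476 ± 56.1 (log2 fold change 0.67, adjusted p = 2.73e-05 by the same test). Foxo1 (0.67) and Smad2 (0.38) were also higher, and Smad3, a carrier of the TGF-β signal, fell (-1.61), all named after their values were seen. With PFI-3, 3 of the 13 were lower (Id1, Id3 and Myc, with -0.44, -0.25 and -0.33), or 23.1% beside 5.38% of all genes, and 10 were not called, and Id1 had the largest fall (log2 fold change -0.44, adjusted p = 0.0408 by edgeR's quasi-likelihood test). When Stem library 2 was left out, 1 was higher and 3 were lower. Of 17 regulators of the Cdkn2a and Cdkn2b locus, among them the Polycomb genes that silence it, 2 were higher, 10 lower and 5 not called with TGF-β, with a median log2 fold change of -0.22, so that 11.8% were higher and 58.8% lower against 37.3% and 37.7% of all genes. These counts were 1 and 11 without Stem library 2. The Polycomb gene Cbx7 fell most, from 217 ± 10.8 to 64.98 ± 4.43 (log2 fold change -1.74, adjusted p = 2.54e-08 by edgeR's quasi-likelihood test), and Ets1, an activator of Cdkn2a, rose most (0.26, adjusted p = 1.34e-04). The other one higher was the Polycomb gene Ring1 (0.16), named after its value was seen. With PFI-3 none of these 17 was called by either tool, and 1 had an unadjusted p below 0.05.

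Of 17 proliferation markers, 10 were higher, 4 lower and 3 not called in TGF-β against Stem, with Rrm2, for ribonucleotide reductase, rising most (log2 fold change 1.79, adjusted p = 1.52e-09 by edgeR's quasi-likelihood test) and Mcm4 falling most (-1.04, adjusted p = 3.43e-09). The other 3 lower, named after their values were seen, were Mcm6 (-0.52), Mcm7 (-0.16) and Top2a (-0.14). Other subunits of the replicative helicase, Mcm3 (0.38) and Mcm5 (0.46), were higher and Mcm2 (-0.02) was not called, also named after their values were seen. The 58.8% higher and 23.5% lower stood beside 37.3% and 37.7% of all genes, DESeq2 called 10 higher and 2 lower, and without Stem library 2 the counts were 11 and 4. Their summed level was 8213 to 8633 normalized counts in Stem, 8875 to 9108 with TGF-β and 9007 to 9188 in Both. With PFI-3, 1 was lower, the mitotic kinase gene Plk1 (log2 fold change -0.53, adjusted p = 0.0319 by edgeR's quasi-likelihood test), which was named after its value was seen. That is 5.88% of the list, where 5.38% of all genes were lower. The other 16 were not called, and DESeq2 called 0 of the 17.

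**Figure D5:**
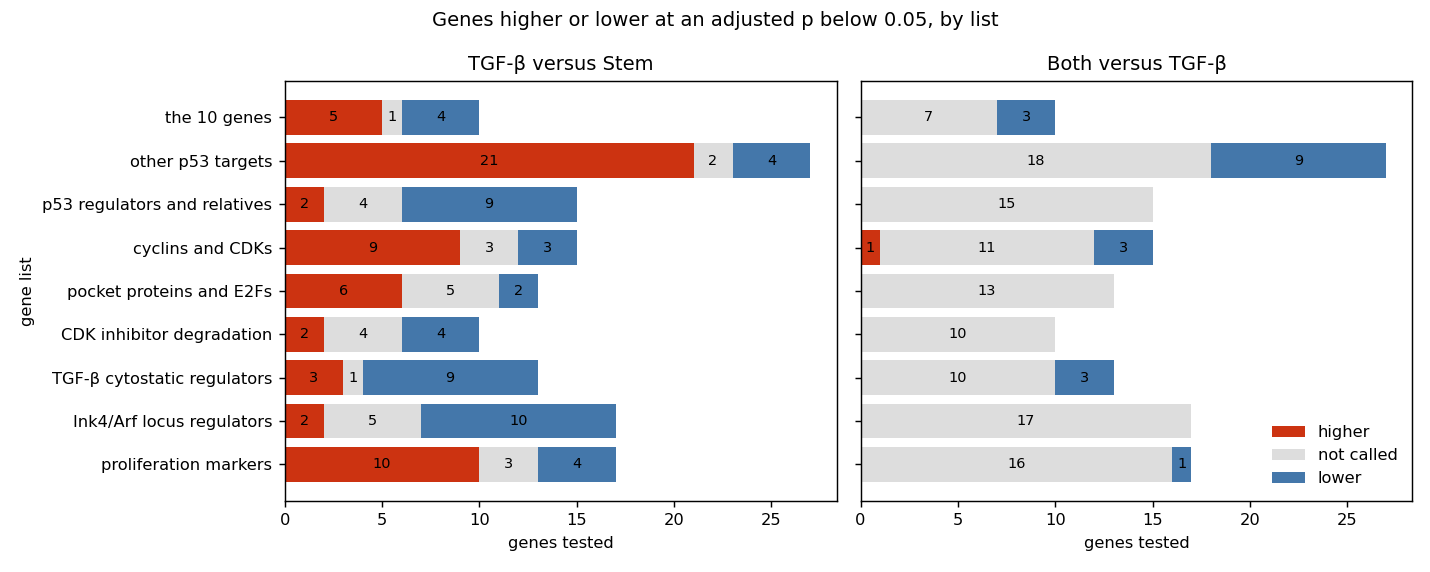
Number of genes tested in each list that were higher, not called or lower at an adjusted p below 0.05, in TGF-β against Stem (left) and Both against TGF-β (right). On the left the other p53 targets are mostly higher (21 of 27), and on the right they hold 9 of the lower genes while 4 lists have no gene called.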

How the data were processed

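Counts were measured in 9 libraries of ribosome-depleted RNA sequenced in paired ends. The authors deposited unnormalized counts for each Ensembl gene, in 9 columns. The paper describes trimming with Flexbar and alignment with STAR, while the submitters' processing notes name HISAT2 2.2.1, SAMtools 1.13, HTSeq 0.11.3 and the build GRCm39. Which made these counts, the strand setting and the handling of multiply aligned reads are not given in the sources used here. Cdkn1a and Cdkn1c overlap opposite-strand genes in GENCODE M21 by 273 and 625 exonic bases, and these had 1 and 0 counts in all libraries together.

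In R 4.3.3, genes were kept by edgeR's filterByExpr (14879 of 55416), scaled by TMM (factors 0.967 to 1.08) and tested with edgeR 4.0.16 by the quasi-likelihood test, in 1 model of the 9 libraries that had a term for group alone, with Benjamini-Hochberg adjustment over all genes tested. The estimated common coefficient of variation was 6.13%. Standard errors and 95% intervals were derived from the fold change and the F statistic. A call needed an adjusted p of 0.05, and the study's 2-fold minimum was counted separately. In counts simulated for TGF-β against Stem over 14879 genes, edgeR recovered 200 of 200 changed genes, and 4.76% of its calls were false. Of the intervals of the changed genes, 94% held the true value. In that simulation all changes were above 2-fold, every gene had the same dispersion and no library stood apart. It therefore does not show how smaller changes, or a library such as Stem library 2, were handled. Levels per kilobase used the union of GENCODE M21 exons. Depth was 35686291 to 47741128 counts, and 3 counts corresponded to 2.63 to 3.26 normalized counts. The alternatives were DESeq2 1.42.0, other scalings and filters, another prior count, a replicate block, fits of 6 libraries and leaving out each library.

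The 10 genes and the other lists were chosen with earlier results of these data known. All 10 are named, and of each other list the gene with the largest rise and the largest fall among those called with at least 100 mean normalized counts, in TGF-β against Stem and Both against TGF-β. Genes named outside that rule are said to be so, or stand beside a count they belong to. Promoters were searched on both strands over the 250 bases before the start.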

Additional observations from a re-analysis of the deposited data

How the results depend on the processing

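Of 540 refits of the 10 genes over 3 comparisons, 531 kept their direction and their side of the threshold, none lost a call and 7 gained one. Trp53 in TGF-β against Stem, at a log2 fold change of 0.05, changed sign to -0.07 with total counts and ranged from -0.03 to 0.10 when 1 library was left out, and total counts shifted the median of all genes to -0.12. With total counts Mdm2 had a log2 fold change of 0.91, and 3 rather than 4 of the 10 genes passed the 2-fold minimum. The calls gained were Cdkn2a in Both against Stem with no filter (adjusted p = 0.00941 by edgeR's quasi-likelihood test), with a replicate block (0.00358) and without Stem library 2, and Trp53 in Both against TGF-β with only the 6 libraries (0.0278) or without Stem library 2, and in Both against Stem with total counts (0.0247) or without Stem library 2 (0.00235). Over all genes, the 1327 called in Both against TGF-β became 2309 with the replicate block, 2310.0 with only the 6 libraries and 639 to 2193 when 1 library was left out, and the 94 called with 2-fold became 163 with no filter. Library numbers were not taken as pairs in the main fit, which had no replicate term. The libraries numbered 2 nonetheless correlated in their deviations at 0.38 to 0.44 across the groups, above every other pair. Each correlated negatively, at -0.42 to -0.09, with every library 1 or 3 of the other groups. The other same-numbered libraries correlated at -0.05 to 0.25. What the libraries numbered 2 shared was not tested, and leaving out Stem library 2 alone kept it in TGF-β and Both. The replicate block changed no other call among the 10 genes. The depth limits Cdkn1c, with 7 to 19 reads in treated libraries, most. Without Stem library 2, a setting that for the lists was chosen after seeing the data, the further p53 targets gave 21 higher and 3 lower in TGF-β against Stem and 0 higher and 11 lower in Both against TGF-β. In the latter comparison the cyclins and CDKs then gave 3 higher and 4 lower, and the pocket proteins and E2Fs 2 higher and 0 lower.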

Other observations

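The 10876 other genes with a symbol and 100 or more mean normalized counts, those of the lists included, were compared with 4 of the genes. The measure was the root-mean-square difference of their centred log2 levels over the 9 libraries. The nearest genes are given. For Cdkn1a these were Frrs1 (0.0753) and Bid (0.0761), a mediator of cell death, for Cdkn2b the transcripts C77080 (0.0472) and Snhg12 (0.0543), and for Mdm2 Nomo1 (0.0271) and Scamp3 (0.0352). For Cdkn1c the nearest were Olfml2a (0.381) and Ppp1r3c (0.427), which were also lower in TGF-β than in Stem, with log2 fold changes of -6.23 and -5.88. These distances are larger, but Cdkn1c had few reads in the treated libraries. Its coefficients of variation were 63.9% in TGF-β and 31.7% in Both. The part of that spread in the distances was not tested. Frrs1 had log2 fold changes of 1.91 in TGF-β against Stem and -0.26 in Both against TGF-β. Those of Bid were 1.80 and -0.34, beside 1.96 and -0.43 for Cdkn1a. These are the closest of many genes and were given no test.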
